A study of Mus musculus with 14 samples.

Results

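The genes described here are the GABA-A receptor subunits Gabra2, Gabra3, Gabrb1 and Gabrb2 and the glycine receptor subunits Glra1, Glra2 and Glrb. They were chosen by name, and every probe set that the array's annotation gives to 1 of these genes alone was taken, which gave 7 of 18193 genes and 21 of 45037 probe sets. The study looked for genes that parvalbumin (Pvalb) RGCs have in common and for genes that mark subsets of them, where RGCs are the retinal ganglion cells that send the output of the retina to the brain. The data are transcriptomes of 14 single cells in 1 group, named here cell 1 to cell 14, with 1 Affymetrix Mouse430_2 array each. The adult mice, of mixed background, were heterozygous both for PV-Cre, which drives Cre recombinase from the Pvalb gene, and for Ai9, a reporter that turns on the red fluorescent protein tdTomato once Cre has cut its stop sequence. The sources differ on the strains: the labels give 129P2/OlaHsd for PV-Cre and C57BL/6 with 129 SV for Ai9, while the methods describe PV-Cre as segregating C57BL/6 and 129P2OlaHsd and Ai9 as congenic C57BL/6J. Their retinas were dissociated, and red cells were picked by hand. The cross follows any past Cre activity rather than Pvalb at the time of collection, brighter cells were easier to pick, the genetic background segregates, and no source names the animal of a cell. There were no other conditions to compare, so counts, levels and spreads over cells are given without tests.

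Both receptor families are chloride channels built of 5 subunits around a pore. GABA-A receptors usually combine alpha and beta subunits, which together form the site for GABA, with a further kind of subunit such as gamma. Glycine receptors combine an alpha subunit, which can form a channel alone, with the beta subunit Glrb, whose intracellular loop binds the scaffold protein gephyrin and so anchors the channel at synapses. In the retina, amacrine cells release GABA or glycine onto RGCs through these receptors and so shape the timing and the spatial extent of RGC responses.

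A signal of 8 or more times its array's median was called detected. Probe sets detected per cell ran between 4191 in cell 5 and 11910 in cell 12, with a mean of 7897 ± 2464 (SD, n = 14), and the threshold lay between signals of 64.2 in cell 14 and 439.7 in cell 1. Cells 5 and 13 were lowest, with 4191 and 4362, and the Gapdh signal ratio of the 3' to the 5' probe set, a sign of truncated cDNA, was highest in cells 14 (2.61) and 13 (1.95) and lay between 1.09 and 1.55 in the other cells. RGC markers were detected throughout, with 9 or 10 of the 10 measured in every cell. Cells 3 and 6 carried 8 of 9 rod markers, where the other cells carried 1 or 2. Amacrine cells express many of the same receptor subunits, and 0 to 2 of their 10 markers were found per cell by the chosen probe sets. Slc6a5, Tfap2a, Tfap2b, Chat and Th were detected in 0 of 14 cells by any probe set and Gad1 in cell 11 alone, by a probe set other than the chosen one. Gad2 was detected in cell 1 with 4015, or 9.13 times the threshold, and Slc32a1 in 3 cells at only 1.10 to 1.32 times it. Slc6a9 was detected in 6 cells with signals up to 10440 and Pax6 in 12. The part of amacrine RNA in the subunit signals was not tested. Bipolar markers reached 0 to 3 of 7 per cell and Müller glia markers 0 to 5 of 9. The cell with 5 Müller glia markers was cell 4, and the part of glial RNA in its subunit signals was not tested.

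The sequence upstream of the start site is shown for the 3 subunits that were detected in at least 4 cells, because the results turn on these. The sequences come from RefSeq on build GRCm38.p6, where 6 of the 7 genes matched, all but Glra1. Each run is the 250 bases before the first listed start site, written 5′ to 3′ on the strand of the gene, and capitals mark a GC box (GGGCGG or its complement CCGCCC) or a TATA box (TATAAA or its complement TTTATA). The window of Glrb lies on the minus strand at chr3:80913661-80913910, Gabrb2 on the plus strand at chr11:42420190-42420439 and Gabra3 on the minus strand at chrX:72656920-72657169.
Glrb: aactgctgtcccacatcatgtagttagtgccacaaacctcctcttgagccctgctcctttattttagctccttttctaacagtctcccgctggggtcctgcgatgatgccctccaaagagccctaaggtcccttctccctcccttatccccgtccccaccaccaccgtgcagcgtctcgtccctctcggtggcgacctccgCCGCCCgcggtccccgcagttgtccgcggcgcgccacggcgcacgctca
Gabrb2: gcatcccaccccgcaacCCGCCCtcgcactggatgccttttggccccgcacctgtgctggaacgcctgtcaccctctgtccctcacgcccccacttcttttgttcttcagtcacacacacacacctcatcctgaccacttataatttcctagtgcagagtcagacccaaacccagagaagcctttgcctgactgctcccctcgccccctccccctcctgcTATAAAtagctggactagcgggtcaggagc
Gabra3: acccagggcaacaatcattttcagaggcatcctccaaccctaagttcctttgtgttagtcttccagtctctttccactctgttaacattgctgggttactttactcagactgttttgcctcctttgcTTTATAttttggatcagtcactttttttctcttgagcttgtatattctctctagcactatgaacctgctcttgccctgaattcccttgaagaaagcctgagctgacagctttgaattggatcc
The window of Glrb had a GC content of 62.4%, 20 CG dinucleotides and 1 GC box, that of Gabrb2 58.8%, 8 and 1, and that of Gabra3 42.4%, 0 and no GC box. The order of GC content was not that of the number of cells, since the first windows of Gabra2 and Gabrb1, each found in 1 or 2 cells, held 70.0% and 64.4% GC with 18 CG dinucleotides each, and that of Glra2 held 50.4% with 8. Gabrb2 held 1 TATA box, as TATAAA close to the start site, and Gabra3 held 1 as the complement TTTATA, farther upstream. Over all 32851 promoter windows of this length the median GC content was 52.4% and the median number of CG dinucleotides was 6, and 32.7% held a GC box and 12.4% a TATA box on either strand, the 2 motifs sharing no overlapping letters. Gabrb2 has further start sites in RefSeq, with 54.0% and 36.8% GC, as do Gabra3 (39.2%) and Gabrb1 (50.8%), and which of them the cells used was not measured.

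Of the 7 subunits, Gabrb2 and Glrb were broadly detected and the others were found in 4 cells or fewer. Each gene was read first by its chosen probe set, which is the one whose log2 signal averages highest, and then by any of its probe sets. With the chosen probe set, 2 of 7 subunits reached 7 cells or more, and 24.8% of all 18193 genes reached that mark. At least 1 cell showed 6 of 7 subunits, where the share over all genes was 58.2%. With any probe set the counts were 2 of 7 against 26.8% of all genes and 7 of 7 against 60.3%. The subunits had a median of 2 cells under either reading, and all genes had a median of 1 cell with the chosen probe set and of 2 with any. Among the 21 probe sets, 15 passed in some cell, against 46.9% of all probe sets. The 5 that passed in 7 cells or more all belonged to Gabrb2 or Glrb, and the share of all probe sets at that mark was not counted. Gabrb2 and Glrb stood in the upper range of the array, as 10.9% of all genes were detected in 11 cells or more, while 7605 genes were, like Glra1, not detected by their chosen probe set in any cell.

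**Figure D1:**
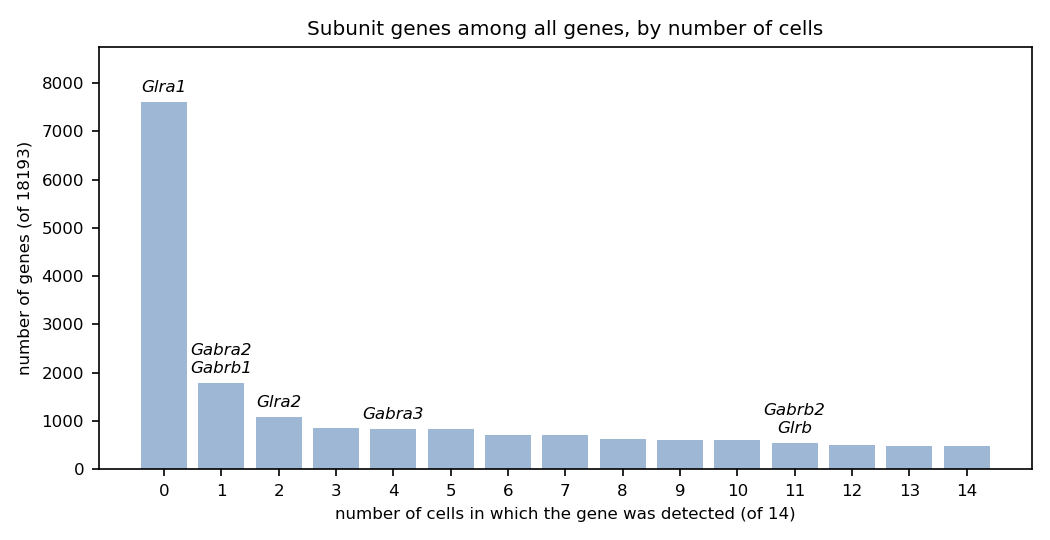
Number of genes (y axis, of 18193) by the number of cells in which the chosen probe set was detected (x axis, of 14), with the 7 subunit genes written above their bars. Gabrb2 and Glrb stand at 11 cells, Gabra3 at 4, and the others at 0 to 2.

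**Figure D2:**
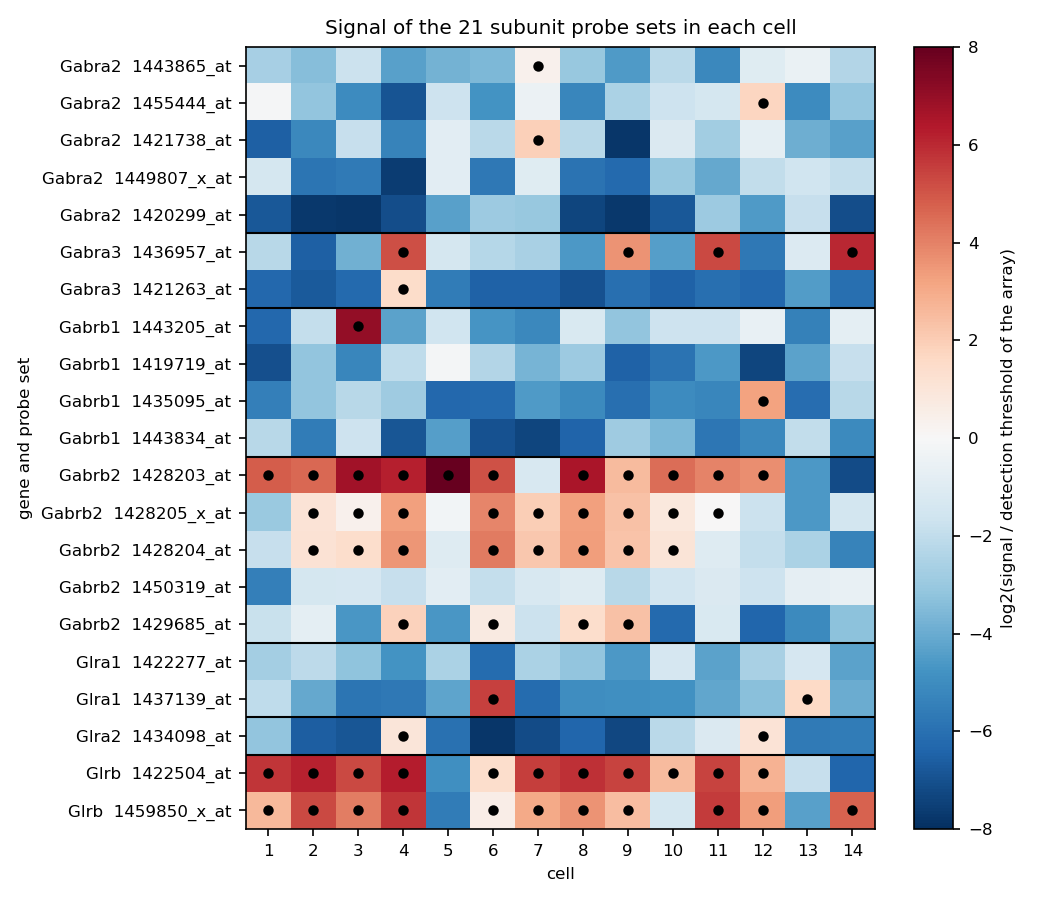
Each of the 21 probe sets (rows, grouped by gene) in each of the 14 cells (columns), coloured by log2 of the signal over the detection threshold of the array, with a black dot where the signal was detected. The probe sets of Gabrb2 and Glrb are dotted across most cells, and those of the other genes in single cells or, for Gabra3, in 4.

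Gabrb2 encodes the beta2 subunit, which is part of the most common GABA-A receptors of the adult brain. Its chosen probe set 1428203_at was detected in 11 of 14 cells, or 78.6% (exact Clopper-Pearson 95% interval 49.2 to 95.3%, which covers counting error only and takes the cells as independent). From cell 1 to cell 14 its signals were 12743, 2878, 12814, 6074, 27199, 3927, 50.9, 10766, 967, 6533, 1879, 1736, 4.43 and 0.441. The highest signal was that of cell 5, the cell in which the fewest probe sets passed, and the 3 cells below the threshold were 7, 13 and 14. Detected signals had a median of 6074, and every one of them was at least 5.76 times its threshold, so a wide gap parted them from the undetected cells.

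A second group of Gabrb2 probe sets gave another picture of the same cells. Probe set 1428204_at was detected in 8 cells and 1428205_x_at in 9, and their signals ran together over the 14 cells (Pearson r = 0.97 on log2(signal + 32)). In cell 7 they gave 551 and 490, which brought Gabrb2 to 12 of 14 cells, while 1428203_at stayed at 50.9. In cell 5 they gave 32.5 and 56.1, below the threshold of 65.3, beside 27199 from 1428203_at. Their correlation with 1428203_at was 0.37 and 0.33, and -0.15 and -0.22 without cells 13 and 14. Probe set 1429685_at was detected in cells 4, 6, 8 and 9, with signals of 187 to 836, and 1450319_at in none, with signals of 9.98 to 102. In 9 cells several of the 5 probe sets were detected, in 3 cells a single one, and in no cell all 5. Where on the transcript each probe set lies was not analysed here.

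Gabrb1 encodes the beta1 subunit, an alternative to beta2 in the same position of the receptor. It was detected in 2 cells, by a different probe set in each. In cell 3 probe set 1443205_at reached 15947, and in the other 13 cells it stayed at 92.7 or below. In cell 12 probe set 1435095_at reached 1188, against at most 26.4 elsewhere. The remaining probe sets 1419719_at and 1443834_at were not detected, with highest signals of 58.0 and 95.6. Cell 3 is one of the 2 cells that carried 8 of 9 rod markers, and the part of that admixture in its Gabrb1 signal was not tested.

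Gabra3, which encodes the alpha3 subunit, divided the 14 cells with a wide gap. Its chosen probe set 1436957_at gave 3017 in cell 4, 2012 in cell 9, 4586 in cell 11 and 4160 in cell 14. In the other 10 cells it lay between 1.29 and 93.0, each below its threshold. The detected cells thus lay within a narrow band that began at 12 times the threshold, and no cell fell between. On the log2 scale the SD of the 4 detected signals was 0.54, and the median SD over the 831 genes detected in 4 cells was 1.50, with 4.21% of them below that of Gabra3. The other Gabra3 probe set, 1421263_at, was detected in cell 4 alone with 233, and lay at 5.53 or below elsewhere. In cell 14 Gabrb2 was at 0.441 and no beta subunit was detected beside Gabra3.

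Gabra2 encodes the alpha2 subunit, which is often found at synapses on the axon initial segment of brain neurons. Of its 5 probe sets, 1443865_at and 1421738_at were detected in cell 7 with 159 and 466, and 1455444_at was detected in cell 12 with 434. The first of these stood at 1.27 times the threshold and the others at 3.74 and 3.34 times. In cell 1 probe set 1455444_at gave 411, just below the high threshold of 439.7 of that array. Probe sets 1449807_x_at and 1420299_at were not detected in any cell, with highest signals of 168 and 29.7.

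**Figure D3:**
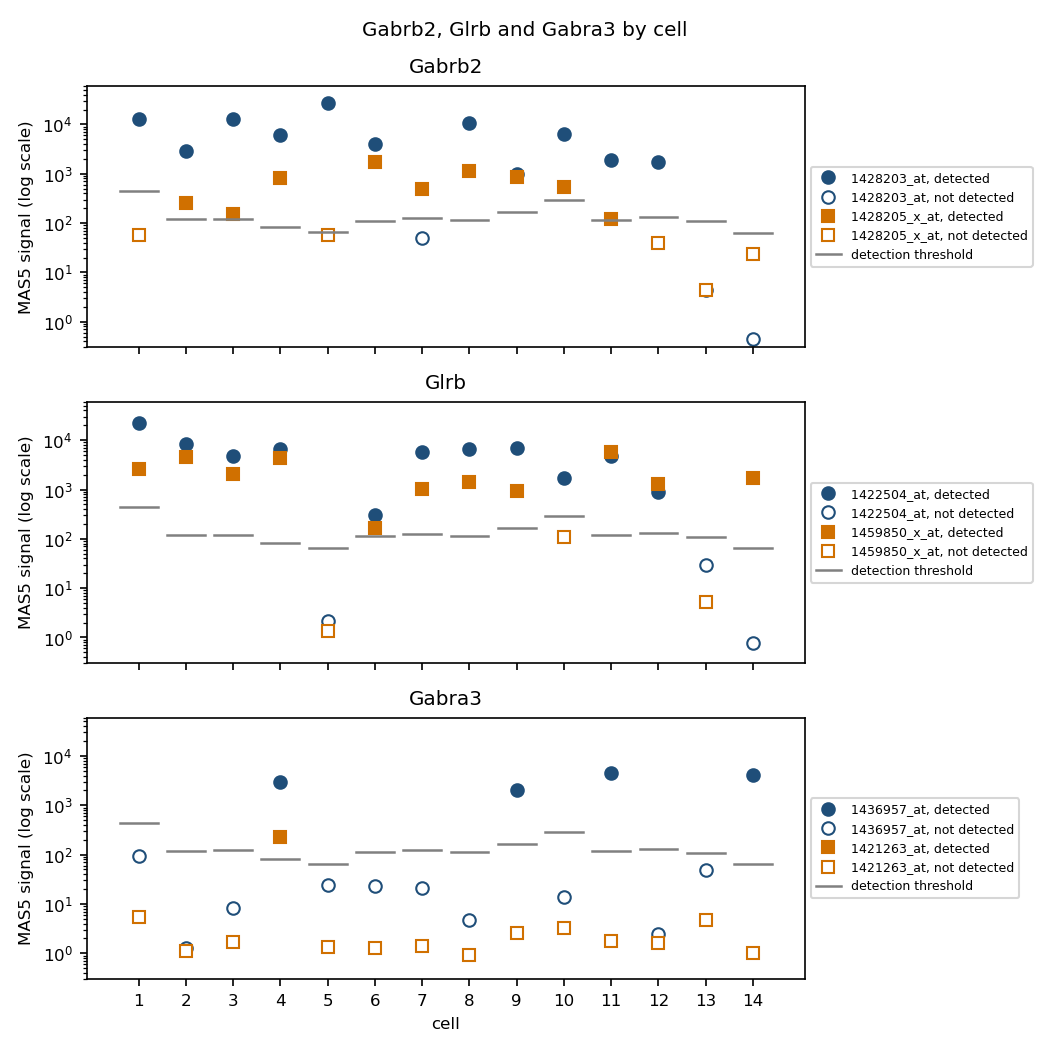
MAS5 signal (log scale) of 2 probe sets each of Gabrb2, Glrb and Gabra3 in the 14 cells, filled where detected and open where not, with the threshold of each array as a grey line. Gabra3 is detected in cells 4, 9, 11 and 14 only, and Gabrb2 and Glrb by their chosen probe sets in all but 3 cells each.

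Glrb, the beta subunit of the glycine receptor, was detected in as many cells as Gabrb2. Signals of its chosen probe set 1422504_at from cell 1 to cell 14 were 22696, 8342, 4760, 6516, 2.15, 301, 5687, 6599, 7099, 1718, 4882, 879, 29.6 and 0.790. The 11 detected signals had a median of 5687 and lay between 2.68 and 78.3 times their thresholds. Cells 5, 13 and 14 were below the threshold, which are those in which the fewest probe sets passed, and the part of depth in these absences was not tested. Probe set 1459850_x_at was also detected in 11 cells, now with cell 14 (1690) and without cell 10 (111, against a threshold of 292.4). Both probe sets were detected in 10 cells and neither in cells 5 and 13. Their signals correlated with r = 0.70 (Spearman's rho 0.55, and r = 0.83 without cells 5 and 14) over 14 cells that share amplification and array scaling. The spread of detected Glrb signals was an SD of 1.72 on the log2 scale, that of Gabrb2 was 1.48, and the median over the 536 genes detected in 11 cells was 1.60.

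The alpha subunits of the glycine receptor, which bind glycine and carry the channel, were rarely seen. Glra1, the alpha1 subunit of adult spinal cord and brainstem receptors, had no signal above 114 with its chosen probe set 1422277_at and so was not detected by it in any of 14 cells, a count that allows a share of up to 23.2% (exact interval, counting error only). Its other probe set 1437139_at gave 4947 in cell 6 and 325 in cell 13, or 44.0 and 3 times the threshold, and 107 or less elsewhere. Cell 6 is the other cell with 8 of 9 rod markers, and the part of that admixture was not tested. Glra2, the alpha2 subunit, has a single probe set, 1434098_at, which gave 162 in cell 4 and 281 in cell 12. These signals were 1.95 and 2.16 times the threshold, and cells 4 and 12 are the 2 cells with the most detected probe sets.

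Subunits from both sides of a receptor were detected together in few cells. An alpha (Gabra2 or Gabra3) and a beta (Gabrb1 or Gabrb2) GABA-A subunit were found in cells 4, 9 and 11 with the chosen probe sets, and in cells 4, 7, 9, 11 and 12 with any. A beta without either alpha was seen in 8 cells with the chosen probe sets and in 7 with any. Glrb was joined by Glra1 or Glra2 in cells 4 and 12, and with any probe set also in cell 6, and it was found without them in 9 cells under either reading. Counting the alpha3 subunit Glra3 as well, Glrb had an alpha subunit beside it in cells 4, 7 and 12, and with any probe set also in cell 6. Gabrb2 and Glrb themselves were detected together in 10 cells, and in 11 with any probe set. Their levels did not run together closely, with r = 0.39 (rho 0.21) over 14 cells and -0.28 without cells 13 and 14. Gabra3 correlated at -0.29 with Gabrb2 and at -0.01 with Glrb, and at -0.04 and 0.26 without cells 11 and 14, so neither relation held.

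The number of subunits per cell moved with the depth of the cell. With any probe set, 1 subunit was detected in cells 5 and 13, 2 in cells 1, 2, 8, 10 and 14, 3 in cells 3, 6, 7, 9 and 11, 4 in cell 4 and 5 in cell 12. Cell 12 held Gabra2, Gabrb1, Gabrb2, Glra2 and Glrb. Cell 4 held Gabra3, Gabrb2, Glra2 and Glrb. Over the 14 cells the number of subunits correlated with the number of all detected probe sets at r = 0.85 (rho 0.82), and at 0.73 without cells 4 and 12. With the chosen probe sets r was 0.70 (rho 0.65), and 0.55 without them. The member probe sets are part of all probe sets, and both counts come from the same array.

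**Figure D4:**
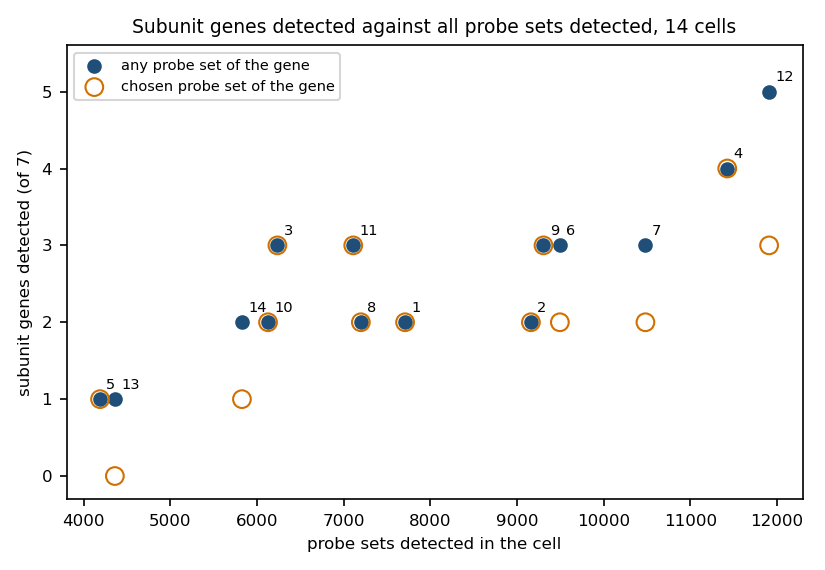
Number of the 7 subunit genes detected (y axis) against the number of all probe sets detected (x axis) in each of 14 cells, whose numbers stand beside the points. Filled points use any probe set of a gene and open circles the chosen one, and cells 4 and 12 lie at the upper right with 4 and 5 subunits by any probe set.

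Genes with the pattern most like that of a subunit were sought for the 3 subunits detected in at least 4 cells, among 6880 genes detected in at least 4 cells, by Pearson's r on log2(signal + 32). For Gabra3 these were Ppp1r1a (r = 0.95, rho 0.65), an inhibitor of protein phosphatase 1, Ppp1r14c (r = 0.91, rho 0.57), another inhibitor of that phosphatase, and the zinc finger gene Zfp597 (r = 0.89, rho 0.70). Without cells 11 and 14 these r were 0.91, 0.92 and 0.87. Ppp1r1a and Ppp1r14c were detected in the same 4 cells as Gabra3, and Zfp597 in these and in cell 6. Genes picked for the highest r with such a pattern tend to share its cells, so this adds nothing to r. Of the 830 other genes detected in 4 cells, 3 had exactly the cells of Gabra3, or 0.361%.

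For Gabrb2 the most similar genes were the potassium channel gene Kcnh3 (r = 0.86, rho 0.78), the chaperone gene Hsp90b1 (r = 0.84, rho 0.65) and the transcription factor gene Nfe2l1 (r = 0.83, rho 0.88). These relations rested in part on the 2 cells with very low signals, since without cells 13 and 14 they fell to 0.78, 0.52 and 0.53. Kcnh3 signals were low, with a highest of 483 in cell 10, whose threshold was 292.4. Its r was 0.65 after quantile normalization. All r used the chosen probe sets, for Gabrb2 1428203_at alone, with which its other probe sets agreed poorly. For Glrb the most similar genes were Mab21l1 (r = 0.94, rho 0.71), Cfap36 (r = 0.94, rho 0.92) and Bend6 (r = 0.93, rho 0.80). Their r were 0.87, 0.88 and 0.85 without cells 5 and 14. Mab21l1 and Bend6 were detected in the same 11 cells as Glrb, but so were 63 of the 535 other genes with 11 cells, or 11.8%, and the cells left out are those with few detected probe sets. Of the same 535 genes, 1 had the cells of Gabrb2, or 0.187%. Pvalb, through which the cells were labelled, was detected in 13 of 14 cells, all but cell 5, where it lay at 7.27. It correlated with Gabra3 at 0.18 (rho 0.19, and 0.11 without cells 11 and 14). Pvalb correlated with Gabrb2 at -0.48 (rho -0.40, and -0.42 without cells 13 and 14), and cell 5, which had the highest Gabrb2 signal, was kept in both r. With Glrb it correlated at 0.30 (rho 0.09), which turned to -0.35 without cells 5 and 14.

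Other subunits of the same families were also detected in few cells. Of 11 further GABA-A subunit genes measured, 9 were detected in no cell by their chosen probe sets, 2 were found in 1 to 6 cells and 0 in 7 or more, where over all genes 41.8% were found in no cell and 24.8% in 7 or more. Gabra4 (alpha4) was detected in cell 7 with 515, and Gabra5 (alpha5) in cell 9 with 506 and in cell 12 with 1211. Gabrg1 and Gabrg3, which encode gamma subunits, were found only by probe sets other than the chosen ones, Gabrg1 in cell 1 (1478) and cell 13 (143) and Gabrg3 in cell 7 (1057). Gabra6, Gabrd, Gabre, Gabrp, Gabrq, Gabrr1 and Gabrr2 were not detected by any probe set. In the gene order of GRCm38.p6 Gabrg1, Gabra2, Gabra4 and Gabrb1 lie near one another on chromosome 5. By any probe set Gabrg1 was found in cells 1 and 13, Gabra2 in 7 and 12, Gabra4 in 7 and Gabrb1 in 3 and 12. Such counts were common, as 1790 of all 18193 genes were found in 1 cell and 1103 in 2 by any probe set. Further listed subunits had no probe set named here and were not analysed. Of the other glycine receptor subunits, Glra3 (alpha3) was detected in cell 5 with 19553, cell 4 with 822 and cell 7 with 307, and Glra4 in none. The Glra3 signal of cell 5 stood where neither Glrb probe set passed 2.15.

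Genes that anchor these receptors or take part in their trafficking, many of them general trafficking genes, were then counted by their chosen probe sets. Among 17 measured, 13 reached 7 cells or more, beside 24.8% of all genes, 2 were seen in 1 to 6 and 2 were not seen, and the median was 10 cells against 1 over all genes. Gphn, the gene for gephyrin, was detected in 7 cells (10 by any probe set), with a highest signal of 2509 in cell 7. All 7 also had Glrb, but Glrb was detected in 11 of 14 cells, and how often other genes found in 7 cells overlap it so was not counted. Nlgn2, an adhesion protein of inhibitory synapses, was detected in 13 cells, all but cell 11. Lhfpl4, which binds GABA-A receptors and carries them to synapses, was detected in all but cell 5, and there by another probe set. Iqsec3, a gephyrin-binding exchange factor, was detected in all 14 cells at 5477 to 62307, as were Nsf, Gabarapl1 and Gabarapl2. Gabarap, which links GABA-A receptors to the trafficking machinery, was detected in 13 cells, Clptm1 in 12, Trak1 and Trak2 in 10 each, Zdhhc3 in 9 and Shisa7 in 7. Plcl1 and Mdga1 were detected in none by any probe set.

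Chloride transport sets the direction of the current through these receptors. Slc12a5, the neuronal exporter KCC2, was detected in 13 of 14 cells with signals of 2889 to 43816, and lay at 2.43 in cell 13. Slc12a2, the importer NKCC1, was detected in cells 2, 4 and 12 with signals of 3028, 377 and 280, and in cell 7 by another probe set. Of the 7 chloride genes, 5 reached 7 cells or more, beside 24.8% of all genes, the others of these being the anion exchanger gene Slc4a3 (14 cells), the kinase genes Wnk1 (11) and Stk39 (10), and Clcn3 (10). Clcn2 was detected in none. Of 3 genes for GABA-B receptors and their partners, which act through G proteins and not as channels, Gabbr1 was detected in all 14 cells at 187 to 21019.

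Among 9 genes that make, pack or take up the transmitters, 1 reached 7 cells or more, beside 24.8% of all genes, and 7 were seen in 1 cell or more, beside 58.2%, by the chosen probe sets. Abat, which breaks GABA down in mitochondria, was detected in 11 cells. Slc6a9, a glycine transporter, was detected in 6 cells, Aldh5a1 in 5, Slc6a11 in 4, and Slc6a13 and Slc32a1 in 3 each. The Slc32a1 signals stood at only 1.10 to 1.32 times the threshold. Gad2, which makes GABA, was detected in cell 1 with 4015. Gad1, which also makes GABA, was not detected by its chosen probe set but by another in cell 11, and Slc6a5, the glycine transporter of glycinergic neurons, was not detected by any.

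**Figure D5:**
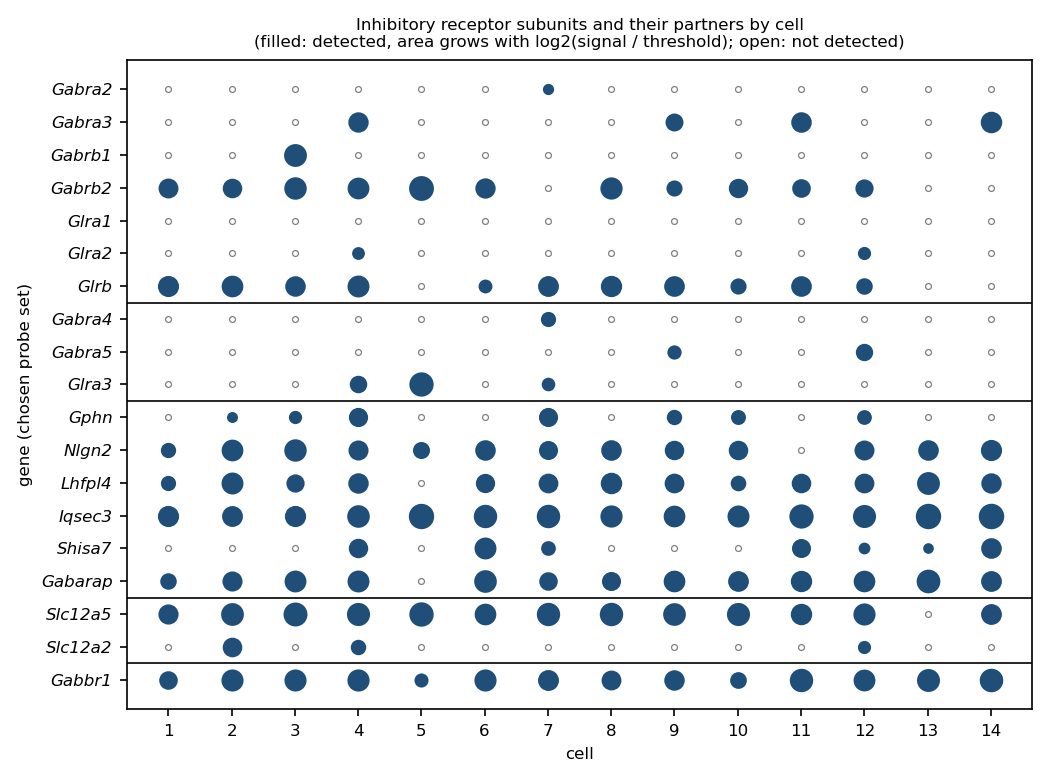
Detection of the 7 subunits, of 3 further subunits and of their partner genes (rows, chosen probe sets) in the 14 cells (columns), filled where detected with an area that grows with log2 of the signal over the threshold, and open where not. Iqsec3 and Gabbr1 are filled in all 14 cells and Slc12a5 in 13, while the alpha subunits are filled in 4 cells or fewer.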

How the data were processed

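Single tdTomato+ cells were lysed, reverse transcribed from an oligo-dT primer, amplified by 35 cycles of PCR and hybridized to Affymetrix Mouse430_2 arrays. Libraries were screened by PCR for Sncg and against rhodopsin and glutamine synthetase. On the arrays Glul, the gene for glutamine synthetase, was still detected in 8 of 14 cells, with signals up to 15865. Arrays of the study were run at more than 1 facility, and which array was read where was not stated for any cell. Priming at the 3' end and many PCR cycles make the capture of low transcripts uncertain, and an undetected gene may still have been expressed. The deposited values are linear signal intensities per probe set that the authors made with MAS5, with no version stated, scaled to a 2% trimmed mean of 500.0 on every array. No further normalization was applied. No other columns of per-sample values were present (0 columns not used).

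The 45101 rows included 64 controls. Of the 45037 probe sets tested, 34945 had 1 gene, 932 several and 9160 none named here, and 34741 of the first kind matched a mouse gene table of GRCm38.p6, used for names, gene order and promoter sequences. A signal of at least 8 times the array median was called detected (3 on the log2 scale), and 0 of 378 values of 27 control probe sets for foreign transcripts passed. The 14 cells formed 1 group without named animals, so no test was run and SDs describe the spread between cells. The number of arrays limits the precision. No 2 arrays were alike enough to be the same library (r of log2(signal + 32) between 0.417 and 0.746 over 91 pairs). Correlations used log2(signal + 32), with r repeated after leaving out the 2 cells most distant from the member's median. Levels of different probe sets were not compared as amounts.

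Named genes were the 7 members, genes of the lists of inhibitory genes (those in at least 7 cells, the further receptor subunits and up to 5 undetected per list), the 3 genes with the highest r for each member in at least 4 cells, and Pvalb. Slc12a2, the rarer transmitter genes and the cell type markers are named besides, as is the Gapdh ratio, chosen after values were seen. Members and lists were chosen with earlier results of these data known. Alternatives were thresholds of 4 and 16 times the median, a fixed signal of 1000, the highest foreign control, any or the mean of the probe sets of a gene, quantile normalization, offsets of 8 and 100, Spearman's rho, and leaving out cells 3 and 6 or 5 and 13. Python 3.11.15, numpy 2.4.6, pandas 2.3.3, scipy 1.17.1 and matplotlib 3.10.9 were used, and the detection and correlation steps were tested on simulated data.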

Additional observations from a re-analysis of the deposited data

How the results depend on the processing

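Of 180 recomputed values, 168 stayed within the spread or interval of their value and 12 moved outside it. With 14 cells these intervals are wide, as for Gabra3 (8.39 to 58.1%), so staying inside is a weak check. Among those that moved were the rho of Gabra3 with Ppp1r1a and Ppp1r14c and of Glrb with Mab21l1. The count of 2 subunits in at least 7 cells was unchanged under every alternative run. Gabrb2 was detected in 57.1 to 85.7% of cells and Glrb in 64.3 to 91.7% over the alternatives, and Gabra3 in 14.3 to 33.3%. The rarer subunits depended on the setting, with 0 to 21.4% of cells for Gabra2, 0 to 28.6% for Gabrb1, 0 to 14.3% for Glra1 and 0 to 16.7% for Glra2. Cells with Glra1 or Glra2 together with Glrb made up 14.3%, and 0.0% at a fixed signal of 1000 and 0.0% after quantile normalization, since the Glra2 signals lie under 1000 and, for the quantile setting, the cause was not tested. Cells with an alpha and a beta GABA-A subunit numbered 3, and 1 to 6 over the alternatives. Without cells 3 and 6, Gabrb1 was detected by its chosen probe set in 0 cells. No paired analysis was possible because all cells form 1 group and no result comes from a test. The number of cells limits the absences: a gene not detected in any of 14 could still be detected in up to 23.2% of such cells. That bound is an exact interval for counting error only. Cells 5, 13 and 14, where Glrb was not detected by its chosen probe set, hold the fewest detected probe sets. The part of depth in these absences was not tested.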
